A study of Mus musculus with 6 samples.

Results

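Thymosin beta 4, profilin, cofilin and gelsolin are proteins that bind actin monomers or cut actin filaments, and vimentin forms a filament of a different kind. Messenger RNA levels of these genes were compared between megakaryocyte-erythroid progenitors of Fog1+/+ mice and of Fog1ki/ki mice, which carry a Fog1 knock-in on both chromosomes. The set comprised Tmsb4x, Tmsb10, Pfn1, Pfn2, Cfl1, Cfl2, Actb, Actg1, Gsn and Vim, chosen by their function with earlier results of these arrays known. Of these 10 genes, 8 were measured among 19661 genes. Tmsb10 and Actg1 had no probe set that named them, alone or with other genes. Where a gene had several probe sets, the one with the highest mean over the 6 arrays was to be selected on that level. Each of the 8 genes had a single probe set, so no measured value entered the choice of probe set. That does not hold for the choice of genes, made with earlier results known. None of the 8 lacked a value in any array.

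Each genotype was represented by 3 arrays, labelled as biological replicates of bone marrow progenitors from mice of the B6.129 background, both genotypes sorted by the same surface markers (no lineage markers, Sca1 or CD34, Kit present, FcγRII/III low). The labels give neither the change that the knock-in makes nor the age, the sex or the number of the animals behind an array, so the p-values measure the spread between these samples. Fog1 is the older name of Zfpm1, whose protein is a partner of the erythroid and megakaryocytic transcription factor GATA1. From general knowledge of the study, the knock-in protein has lost its contact with the NuRD chromatin complex. The Zfpm1 transcript stood at 7.57, 7.37 and 7.80 in Fog1+/+ and at 7.65, 7.50 and 7.73 in Fog1ki/ki. That level does not check the labels, since a knock-in need not change it.

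Actin exists as single molecules (monomers) and as filaments. Beta-thymosins hold monomers in reserve, profilins hand them to growing filament ends, and cofilins and gelsolin sever filaments so that monomers are released. Vimentin is the intermediate filament protein of many leukocytes and mesenchymal cells and is known to decline as red cell precursors mature, while megakaryocytes rebuild their actin network to form platelets. The free monomer pool also restrains the MRTF coactivators of the transcription factor SRF, which in turn drives actin genes.

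The RefSeq promoter windows of Tmsb4x and Vim, the genes with the largest positive and the largest negative difference in the set, are shown so that the reader can see the sequence at each start. Each window runs from 250 bases before the transcription start to 50 after it, 5′ to 3′ on the gene's own strand, in GRCm38.p6. Capitals mark GATA motifs, searched as AGATAA or AGATAG or TGATAA or TGATAG on both strands. The Tmsb4x window lies at chrX:167209169-167209468 (minus strand) and the Vim window at chr2:13574061-13574360 (plus strand).
Tmsb4x: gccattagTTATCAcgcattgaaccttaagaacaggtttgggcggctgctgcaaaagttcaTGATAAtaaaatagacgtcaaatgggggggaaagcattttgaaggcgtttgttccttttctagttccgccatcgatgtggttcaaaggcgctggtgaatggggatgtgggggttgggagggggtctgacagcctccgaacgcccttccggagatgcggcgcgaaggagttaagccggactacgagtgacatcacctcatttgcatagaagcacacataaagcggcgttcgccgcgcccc
Vim: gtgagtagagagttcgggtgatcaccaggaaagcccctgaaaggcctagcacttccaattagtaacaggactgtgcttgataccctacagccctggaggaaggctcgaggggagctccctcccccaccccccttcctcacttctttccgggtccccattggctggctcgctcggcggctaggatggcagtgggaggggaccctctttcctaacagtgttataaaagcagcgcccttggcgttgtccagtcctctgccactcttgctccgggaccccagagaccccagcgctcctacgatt

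The Tmsb4x window held 2 GATA motifs, which begin 242 and 189 bases before the start, and the Vim window held 0. Of all 32851 windows of 300 bases in the table, 29.8% held at least 1 GATA motif. The table had windows for 9 members and none for Actb, and Gsn and Tmsb10 had more than 1 start. The Tmsb4x window lies within the annotated span of the gene (167207093 to 167213479) and not at its outer end. GATA motifs were also found in windows of Pfn1 and Cfl1. The CArG box, the motif bound by SRF, was found in the window of Actg1 alone among the members, and in 1.63% of all windows. These matches describe letters and not binding.

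Tmsb4x, which encodes thymosin beta 4, a small peptide that sequesters actin monomers, was the 1 member that rose in Fog1ki/ki. On the log2 scale Fog1+/+ replicates 1 to 3 gave 9.34, 9.41 and 9.46, and those of Fog1ki/ki gave 11.05, 11.05 and 10.80. The lowest Fog1ki/ki array lay more than 1 log2 unit above the highest Fog1+/+ array, and the replicates of a genotype lay close together. Tmsb4x was 2.96-fold higher in Fog1ki/ki (10.97 ± 0.14 against 9.40 ± 0.06, SD, n = 3 each, limma adjusted p = 0.000371 over all genes). The 95% interval of the log2 difference ran from 1.33 to 1.80. By size it ranked 16th among the increases of all 19661 genes.

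Tmsb4x lies on the X chromosome, and the arrays differed in sex-linked transcripts. The mean of 3 Y-linked genes was 4.16 and 4.14 in replicate 3 of each genotype, and 8.79 or more elsewhere. Xist, the RNA that coats the inactive X chromosome, was 11.02 and 11.03 in those arrays, 9.13 in Fog1ki/ki replicate 2 and at most 5.90 in the other 3. Within the arrays with high Y-linked values the Tmsb4x difference was 1.68 (limma adjusted p = 0.0106, 2 arrays per genotype), and without Fog1ki/ki replicate 2 it was 1.52 (limma adjusted p = 0.00434). With a term for the arrays with low Y-linked values it was 1.56 (limma adjusted p = 0.000791).

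The 10 tested genes nearest to Tmsb4x on the X chromosome, 5 on each side, had log2 differences between -0.18 and 0.11, and 0 of them passed the limma test (lowest adjusted p = 0.627, and 0 with an unadjusted p under 0.05). They include the RNA-sensing receptors Tlr7 and Tlr8. Tlr7, Tlr8, Egfl6 and Frmpd4 had genotype means of at most 4.43, under the lower quartiles of the arrays (4.98 to 5.09). Their differences are limited by that low signal. For Vim, on chromosome 2, the 10 neighbours ran from -0.35 to 0.14, and 0 passed (lowest limma adjusted p = 0.226, and 1 with an unadjusted p under 0.05). That one was Rsu1, the neighbour with the lowest difference. Cubn and Mrc1, also near Vim, had genotype means of at most 4.50, under the same quartiles. No measured member lies on chromosome 8, which carries Zfpm1.

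**Figure D1:**
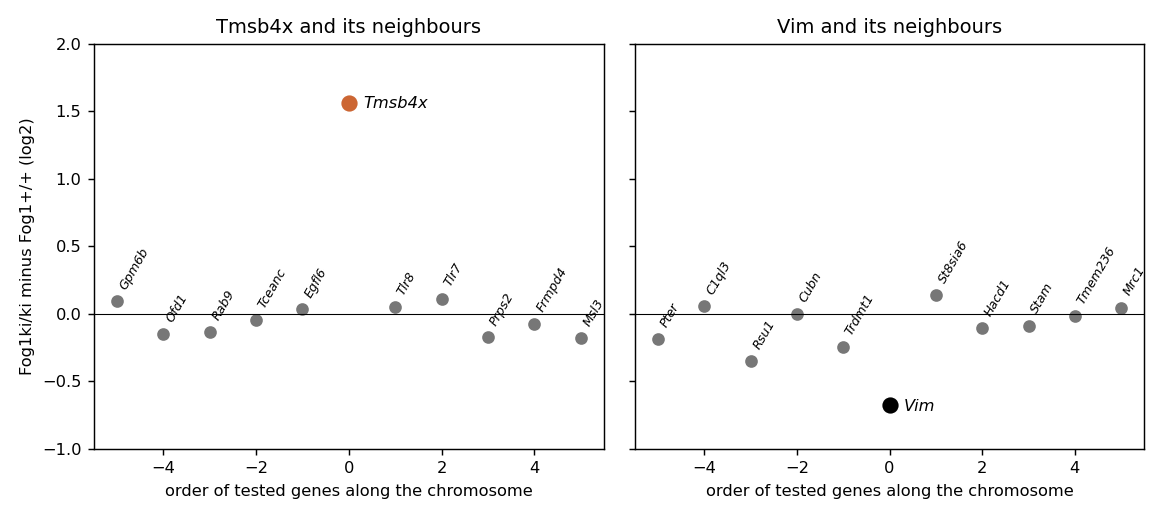
Log2 difference between Fog1ki/ki and Fog1+/+ (vertical axis) of Tmsb4x and Vim and of the 5 tested genes on either side of each, in their order along the chromosome (horizontal axis, 0 is the named gene). The neighbours of Tmsb4x lie between -0.18 and 0.11, while Tmsb4x stands at 1.56. Tlr7, Tlr8, Egfl6 and Frmpd4 had means under the lower quartiles of the arrays.

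The profilins bind actin monomers as thymosin does, but promote their addition to filaments. Pfn1, the profilin of most tissues, measured 11.69, 11.57 and 11.59 in Fog1+/+ and 11.57, 11.11 and 11.36 in Fog1ki/ki. The genotypes met at 11.57, and Fog1ki/ki replicate 2 was the lowest array. The log2 difference was -0.27 (95% interval -0.55 to 0.01, limma adjusted p = 0.550), and -0.15 without that array. Pfn2, best known from neurons, measured 4.22, 4.24 and 4.0 against 4.53, 4.30 and 4.52. All 3 Fog1ki/ki arrays lay above the Fog1+/+ arrays, but every value was below the lower quartile of its array, where RMA (the probe set summary of the deposited values) compresses differences. Its difference of 0.30 did not pass (95% interval 0.05 to 0.55, limma adjusted p = 0.403).

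Cofilins sever ageing filaments. Cfl1, the non-muscle cofilin, measured 10.86, 10.82 and 10.91 in Fog1+/+ and 10.92, 10.51 and 10.83 in Fog1ki/ki. Apart from Fog1ki/ki replicate 2, both genotypes spanned the same narrow range. The difference was -0.11 (95% interval -0.38 to 0.16, limma adjusted p = 0.842), and without that array it turned to 0.01. Cfl2, the cofilin of muscle, gave 8.74, 8.58 and 8.77 against 8.75, 8.73 and 8.75, with overlapping genotypes. Its difference was 0.05 (95% interval -0.16 to 0.25, limma adjusted p = 0.924) and took the opposite sign with arrays centred on their medians.

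Within the pairs of related genes, the difference between Pfn2 and Pfn1 in the same array was 0.57 higher in Fog1ki/ki, and the genotypes did not overlap (exact permutation test, two-sided, p = 0.1, adjusted over 2 pairs p = 0.2). This value holds the Pfn1 difference of -0.27, and its Pfn2 side lies below the lower quartile of every array, so its size is limited by the dim probe set. For Cfl2 and Cfl1 the same quantity was 0.16 higher (exact permutation test, two-sided, p = 0.3, adjusted p = 0.3). With 3 arrays against 3 this test cannot go below 0.1. The thymosin and actin pairs could not be compared, since Tmsb10 and Actg1 were not measured.

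Actb, the cytoplasmic beta-actin itself, measured 12.57, 12.55 and 12.59 in Fog1+/+ and 12.56, 12.41 and 12.56 in Fog1ki/ki. It was bright in every array, and Fog1ki/ki replicate 2 was again the lowest. The difference was -0.06 (95% interval -0.26 to 0.14, limma adjusted p = 0.892), and it turned to 0.003 when quantile normalization was repeated. Gsn, which encodes the calcium-dependent severing and capping protein gelsolin, measured 6.46, 6.59 and 6.69 against 6.41, 6.61 and 6.59. The genotypes overlapped, with a difference of -0.04 (95% interval -0.28 to 0.19, limma adjusted p = 0.941) whose sign changed without Fog1+/+ replicate 3 or Fog1ki/ki replicate 1 (0.01 and 0.02).

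Vim, the vimentin gene, was lower in every Fog1ki/ki array than in any Fog1+/+ array, but did not pass the test over all genes. It measured 8.29, 8.52 and 8.20 in Fog1+/+ and 7.89, 7.76 and 7.33 in Fog1ki/ki. Replicate 3 was the lowest array of each genotype, and replicate 3 of Fog1ki/ki stood below the other Fog1ki/ki arrays. The means were 8.34 ± 0.17 and 7.66 ± 0.29 (SD, n = 3 each), a log2 difference of -0.68 (95% interval -1.03 to -0.33, limma adjusted p = 0.128). Without both arrays with low Y-linked values it was -0.58 (limma adjusted p = 0.359). Over 16 alternative settings the difference stayed negative, from -0.79 to -0.51, and the limma adjusted p ran from 0.0535 to 0.372.

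Of the 8 measured members, 1 rose in Fog1ki/ki, against 0.376% of all genes tested, and 0 fell, against 0.397% (limma, adjusted p under 0.05; 0.773% in either direction). With an unadjusted p under 0.05 there were 2 higher members and 1 lower, and 9.57% of all genes (4.99% higher, 4.58% lower). The genotypes did not overlap in 3 members (Tmsb4x, Pfn2 and Vim), and in 14.8% of all genes. The median log2 difference of the members was -0.05, beside 0.02 for all genes. The spread between replicates was larger in Fog1ki/ki for 5 of the 8 members, and Fog1ki/ki replicate 2 was the lowest of all arrays in 3 (Pfn1, Cfl1 and Actb). Neither share was counted over all genes, so whether these counts are particular to the members is not known.

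**Figure D2:**
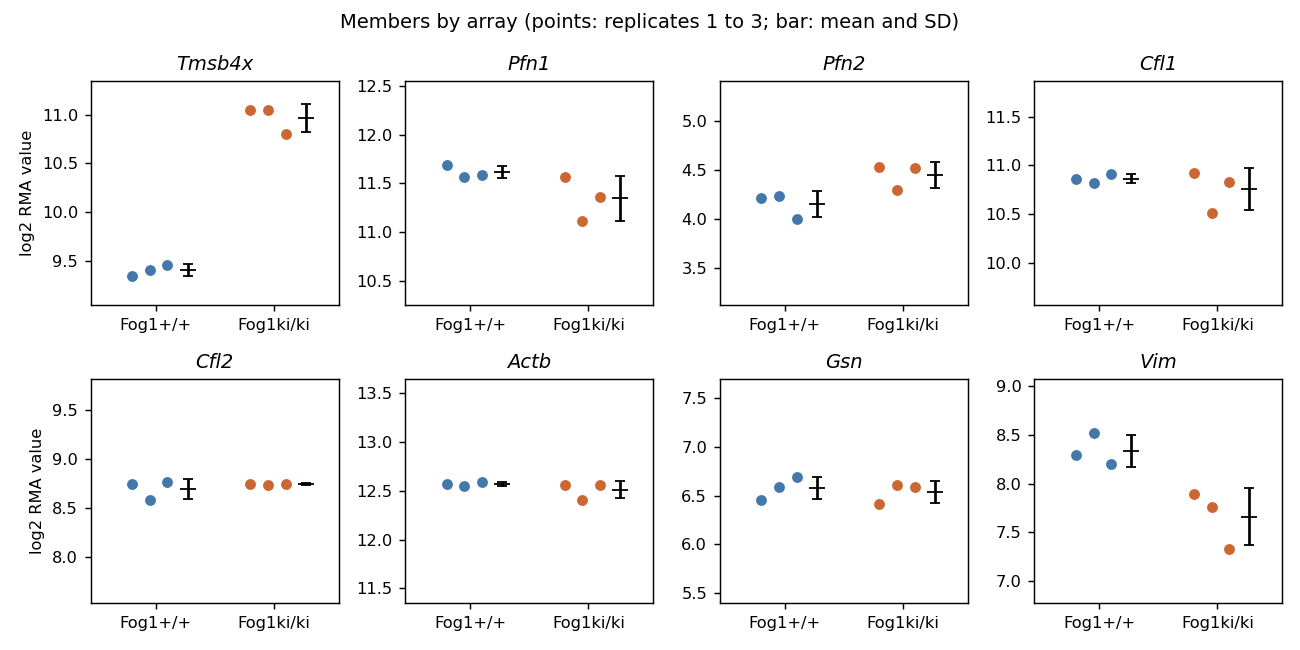
Log2 RMA values (vertical axis, the same span in each panel) of the 8 measured members in the 3 Fog1+/+ arrays (blue) and the 3 Fog1ki/ki arrays (orange), with the mean and SD of each genotype in black. The means of Tmsb4x are 9.40 and 10.97 and those of Vim 8.34 and 7.66. The genotypes overlap for Cfl1, Cfl2, Actb and Gsn and meet for Pfn1.

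Of 127 further measured genes in 9 lists of the actin and filament machinery, 1 rose, 2 fell and 124 did not pass in limma (2.36% called, beside 0.773% of all genes). With an unadjusted p under 0.05 there were 14 higher and 7 lower of the 127, beside 9.57% of all genes. Their median log2 difference was -0.01. The lists were written with earlier results of these arrays known.

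Among those past the threshold the largest difference was that of Dstn, which encodes destrin (actin-depolymerizing factor), the third protein of the cofilin family. Dstn measured 9.79, 9.76 and 9.80 in Fog1+/+ and 9.06, 9.12 and 9.02 in Fog1ki/ki. Replicates differed by 0.10 or less and the genotypes lay well apart. Dstn was 1.64-fold lower in Fog1ki/ki (log2 difference -0.72, 95% interval -0.91 to -0.52, limma adjusted p = 0.00714). Dstn did not pass when Fog1+/+ replicate 3 was left out (-0.71, limma adjusted p = 0.0543) or both arrays with low Y-linked values were (-0.69, limma adjusted p = 0.176). The other 16 measured genes of actin monomer recycling, among them the LIM kinases and slingshot phosphatases that switch cofilin off and on, had differences between -0.24 and 0.28 and did not pass (median of the whole list -0.02).

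Myh10, the heavy chain of non-muscle myosin IIB, measured 9.68, 9.67 and 9.65 in Fog1+/+ and 9.17, 9.04 and 9.17 in Fog1ki/ki. The genotypes did not overlap, and the difference was -0.54 (SE 0.09, limma adjusted p = 0.0311). Myh10 did not pass in 9 of 16 alternatives. These included each fit without 1 Fog1+/+ array and those without Fog1ki/ki replicate 2 or 3, with limma adjusted p between 0.0708 and 0.144, and that without both arrays with low Y-linked values (limma adjusted p = 0.292). The other 6 measured genes of the non-muscle myosin list had differences between -0.08 and 0.08 and did not pass. They include Mylk, which encodes a kinase of the light chains.

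Dst, which encodes dystonin, a giant linker between intermediate filaments, actin and microtubules, measured 5.20, 5.12 and 5.10 in Fog1+/+ and 5.76, 5.63 and 5.76 in Fog1ki/ki. Its values were low on the scale of the array but did not overlap, with a difference of 0.58 (SE 0.09, limma adjusted p = 0.0263). Dst did not pass in 11 of 16 alternatives, including all 6 fits that lacked 1 array, with limma adjusted p between 0.0557 and 0.144, and the fit without both arrays with low Y-linked values (limma adjusted p = 0.342). The other 19 intermediate filament and linker genes, with the lamins, keratins, desmin and nestin among them, had differences between -0.27 and 0.41 and did not pass, and the list had a median of 0.11.

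In the remaining 6 lists, 0 genes passed in limma, and with an unadjusted p under 0.05 there were 9 higher and 4 lower of 83 (9.57% of all genes passed at that level). The 19 genes of the Arp2/3 complex, which starts filament branches, and its activators had a median of -0.05, and the smallest p belonged to Wasl, the neural relative of the Wiskott-Aldrich protein (0.23, limma adjusted p = 0.435). The 11 formin and elongation factor genes had a median of 0.06 (Inf2 0.24, limma adjusted p = 0.445). The 24 bundling and side-binding genes had a median of -0.03, with the leukocyte bundling protein Lcp1 at -0.45 (limma adjusted p = 0.218). The 6 other actin and actin-related genes had a median of -0.03 (smooth muscle actin Acta2 0.36, limma adjusted p = 0.540). SRF and its coactivators, 7 genes, had a median of 0.01 (Mrtfb 0.29, limma adjusted p = 0.433).

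The 16 capping and severing genes had a median of -0.03 but the widest span of the lists. Add2, a subunit of the adducin that caps filaments in the red cell membrane skeleton, was at -0.49 (limma adjusted p = 0.0592). Add2 passed, as 1 lower gene of the list, with the dimmest 25% of genes left out and with array weights (limma adjusted p = 0.0495 and 0.0441). Scin and Tmod3 are named for the size of their differences, a choice made once the values were known. Scin, which encodes the gelsolin relative scinderin, measured 5.19, 5.07 and 4.71 in Fog1+/+ and 7.89, 6.27 and 5.56 in Fog1ki/ki, a difference of 1.58 (SE 0.48, limma adjusted p = 0.288). The Fog1ki/ki arrays lay above the others but far from each other. Without Fog1ki/ki replicate 1 the Scin difference was 0.93. Tmod3, which caps the slow-growing filament end, measured 8.93, 9.56 and 9.27 against 8.49, 8.69 and 8.35, a difference of -0.74 (SE 0.16, limma adjusted p = 0.107).

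**Figure D3:**
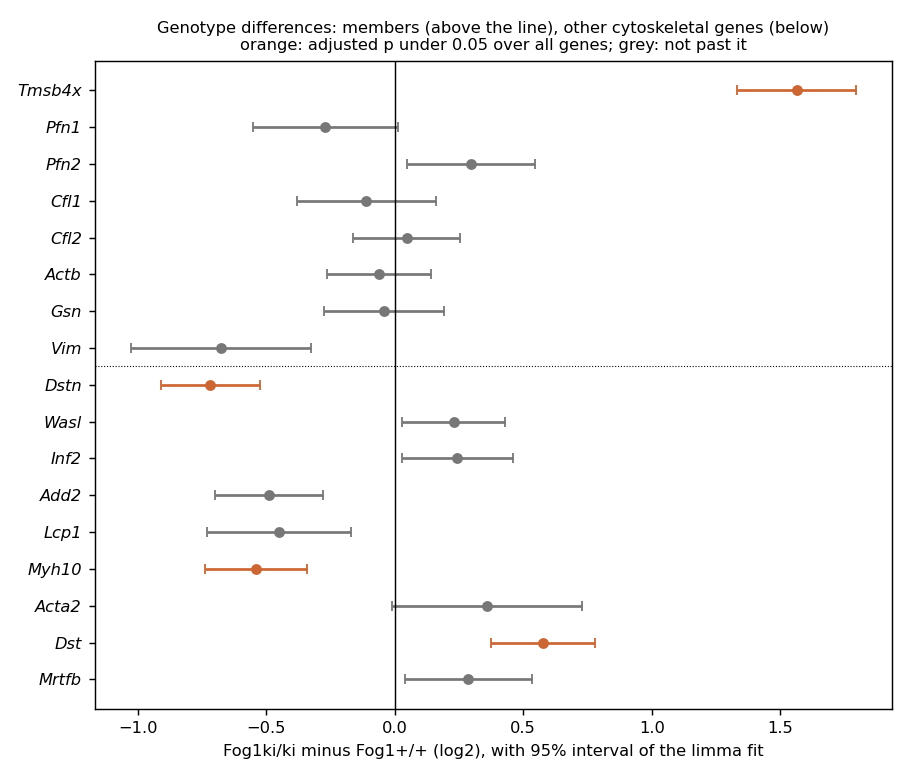
Log2 difference between Fog1ki/ki and Fog1+/+ (horizontal axis) with its 95% interval for the 8 members and, below the dotted line, for 9 other cytoskeletal genes. Orange marks an adjusted p under 0.05 over all genes: Tmsb4x (1.56) and Dst (0.58) to the right of 0, Dstn (-0.72) and Myh10 (-0.54) to the left.

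**Figure D4:**
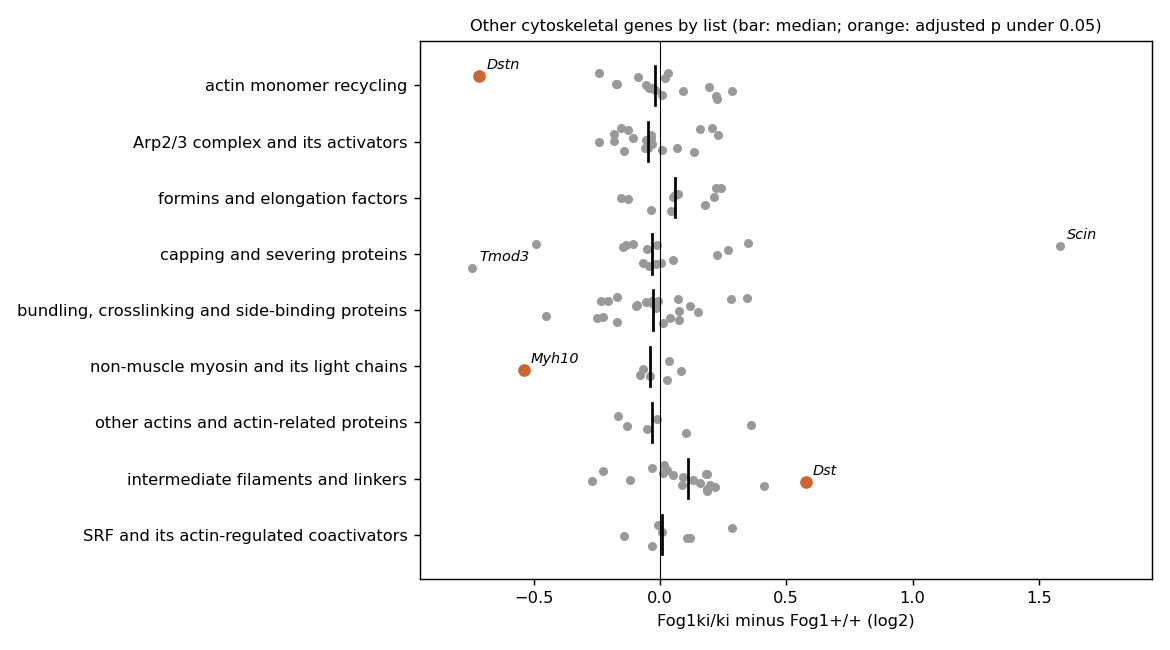
Each point is the log2 difference (horizontal axis) of 1 of 127 measured genes in 9 lists, placed at random heights within its list, and the black bar is the median of the list. All medians lie between -0.05 and 0.11, and the orange points are the 3 genes past the threshold.

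Markers of the cells that the gate is meant to hold or remove were read beside these genes, since in sorted samples fewer cells of a type and less RNA per cell cannot be told apart. The progenitor markers (7 measured of 8 listed) had array means of 8.61 to 8.67 in Fog1+/+ and 8.50 to 8.67 in Fog1ki/ki, and 0 passed in limma (with an unadjusted p under 0.05, 1 higher and 2 lower of 7, beside 9.57% of all genes). Kit, which the gate requires, was at 10.29 and 9.91, and Cd34, which it rejects, at 4.37 and 4.48, under the lower quartiles of the arrays (4.98 to 5.09). Kit was lower in every Fog1ki/ki array than in any Fog1+/+ array, but did not pass (log2 difference -0.38, limma adjusted p = 0.232). Array means of the 8 mast cell markers were 5.10 to 5.15 in Fog1+/+ and 5.83 to 6.43 in Fog1ki/ki, where Ms4a2 and Gata2 rose (log2 differences 3.79 and 1.14, limma adjusted p = 0.000731 and 0.0164). The list also held Fcer1a at 1.91 and Cpa3 at 0.53. Its remaining markers were Mcpt4 and Cma1 at 0.21, Tpsb2 at 0.07 and Hdc at 0.06, which did not pass in limma. Gata2 already stood at 7.16 to 7.37 in Fog1+/+. Gata2 did not pass in the fits that lacked 1 Fog1+/+ array or Fog1ki/ki replicate 3, with limma adjusted p between 0.0579 and 0.0875. Without both arrays with low Y-linked values its adjusted p in limma was 0.217. Within Fog1ki/ki, Scin was highest in replicate 1 and lowest in replicate 3, and so were 3 of the 8 mast cell markers, Ms4a2 (9.15, 8.64 and 7.80), Fcer1a (7.46, 6.93 and 5.24) and Cpa3 (5.65, 4.56 and 4.31). The other 5 had another order, Gata2 (8.72, 8.05 and 8.39) among them. The share of all genes in the order of Scin was not counted, and whether Scin followed these markers was not tested. Fcer1a and Cpa3, named after their values were seen, did not pass in limma (adjusted p = 0.147 and 0.648), though Fcer1a passed without Fog1ki/ki replicate 3 (limma adjusted p = 0.000604) and without both arrays with low Y-linked values (limma adjusted p = 0.0106).

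Array means of the platelet and mature megakaryocyte markers (6 measured of 8 listed) were 6.60 to 6.71 in Fog1+/+ and 6.84 to 7.02 in Fog1ki/ki, with 0 past the threshold in limma (with an unadjusted p under 0.05, 1 higher of 6, Pf4 at 0.97, limma adjusted p = 0.266). Pf4, a platelet chemokine, passed with the replicate block (limma adjusted p = 0.0191). Without Pf4 the means of the other 5 markers were 6.77, 6.45 and 6.51 in Fog1+/+ and 6.72, 6.74 and 6.63 in Fog1ki/ki, which overlap. Neutrophil markers ranged from 7.04 to 7.46 against 7.02 to 7.36, and monocyte and macrophage markers from 4.79 to 4.91 against 4.83 to 4.88, with 4 of 7 under the lower quartile of every array. Lymphoid markers (5.24 to 5.34 against 5.20 to 5.39) and stromal and endothelial markers (5.44 to 5.49 against 5.35 to 5.58) overlapped as well. None of these lists of other blood and stromal cells had a member past the threshold (0 of 31 in limma, and with an unadjusted p under 0.05, 1 higher and 1 lower, beside 9.57% of all genes). The array means of the mast cell markers lay higher in Fog1ki/ki without overlap, as did the values of Tmsb4x. So did the array means of the platelet markers with Pf4 included. Whether such cells were present, and their part in the rise of Tmsb4x, was not tested.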

How the data were processed

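Total RNA of sorted mouse progenitors was amplified (WT-Ovation Pico), labelled with biotin and hybridised to 1-colour arrays, per the labels' protocols. The authors deposited log2 values, for which the submitters' processing notes name RMA (background correction, quantile normalization, probe set summary). The RMA version and the genome build were not given in the sources used here. The log2 scale follows from the range of the values. RMA compresses differences of dim probe sets, and the number of arrays limits the precision.

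Of 25668 probe sets, 20777 had 1 gene in the platform annotation, 232 several and 4659 none; 0 symbols changed through Entrez identifiers. Each of 19661 genes was represented by its probe set with the highest mean, with no filter on dim genes. Array medians were 6.16 to 6.31, and correlations across genes, which are not independent replicates, were 0.993 to 0.994 within Fog1+/+, 0.988 to 0.992 within Fog1ki/ki and 0.988 to 0.991 between genotypes.

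The genotype fit used lmFit and eBayes of limma 3.58.1 (R 4.3.3), two-sided, adjusted by Benjamini-Hochberg over all genes, and tested on simulated data. Promoter windows came from RefSeq (GRCm38.p6), and 9 of 10 members matched. Tables and figures used Python 3.11.15, pandas 2.3.3 and matplotlib 3.10.9.

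The members, the lists and the alternatives were chosen with earlier results of these data known. Named were all members and, per list, up to 2 genes in each direction past the threshold, or else the one with the smallest p; other genes are named as chosen after their values were seen. A further list of the pathway is not reported here. Alternatives were repeated quantile normalization, median centring, leaving out the dimmest 25% of genes, averaging or separately testing probe sets, array weights, an intensity trend, a replicate block, a term for or omission of arrays with low Y-linked values, a threshold of 0.1 and leaving out each array.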

Additional observations from a re-analysis of the deposited data

How the results depend on the processing

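The count of 1 member higher and 0 lower was the same in every alternative run, and the Tmsb4x difference ran from 1.51 to 1.68. The number of all genes past the threshold, 152, fell to 24 without the arrays with low Y-linked values and to between 60 and 134 with 1 array left out. Differences near 0 changed sign: Cfl1 (0.0117 without Fog1ki/ki replicate 2, -0.193 at the lowest with 1 array left out), Cfl2 (-0.00667 with median centring, -0.0117 without Fog1+/+ replicate 2, up to 0.0833), Actb (0.00333 with quantile normalization repeated), Gsn (0.0117 without Fog1+/+ replicate 3, 0.02 without Fog1ki/ki replicate 1, down to -0.103), Zfpm1 (-0.00667 with median centring, -0.0583 without Fog1+/+ replicate 2, -0.005 without Fog1ki/ki replicate 3, up to 0.157) and Tmsb15a, a thymosin of the recycling list (-0.0483 without Fog1ki/ki replicate 2, up to 0.417). The cause was not tested. With the replicate block 133 genes passed, and Tmsb4x kept its call while Myh10 and Dst lost theirs (limma adjusted p = 0.0811 and 0.0647) and Pf4 gained one (0.0191). Same-numbered arrays deviated together weakly (r = 0.07, -0.01 and 0.13 across genes) and not every array correlated best with its own number, so the numbers were not taken as pairs. Signal over background was not used here, and Pfn2 is limited by its low signal.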
